A study of Mus musculus with 24 samples.

Results

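Synaptotagmins and the CAPS proteins act in calcium-triggered exocytosis, and 9 of their genes, 7 synaptotagmins (Syt1, Syt3, Syt4, Syt5, Syt7, Syt11, Syt13) and both CAPS genes (Cadps, Cadps2), were followed in the suprachiasmatic nucleus (SCN) over 2 circadian cycles. The genes were chosen by name, with earlier results of these data known, from the 19938 genes that the array measured. All 9 were measured by 1 probe set each. The SCN is the hypothalamic nucleus that holds the central circadian clock of mammals. All samples came from C57/BL6 mice, kept in a light-dark schedule and afterwards in darkness without light cues. Each of the 24 arrays held RNA pooled from 3 mice, with 1 array for each 2-h step of circadian time (CT), the first at CT 18 and the last at CT 64. The second cycle (CT 42 to CT 64) and the first cycle (CT 18 to CT 40) had 12 arrays each, at the same 12 times of day. CT counts hours, with subjective dawn at 24 and 48, and "h of circadian time" below counts from subjective dawn. No time was repeated, so the scatter around a fitted curve was the error.

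A vesicle that is to fuse is first docked and primed at the membrane, where SNARE proteins of the vesicle and the cell surface pair. Synaptotagmins carry paired C2 domains, and several of them bind calcium and trigger the fusion. CAPS proteins prime dense-core vesicles, which carry neuropeptides and amines, by binding membrane lipid and SNAREs. SCN neurons release GABA from small clear vesicles and peptides such as vasopressin and VIP from dense-core vesicles, and they fire faster by day than by night.

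Promoter windows of 3 genes are shown: those of both CAPS genes, which had the earliest fitted peaks, and that of Syt11, the closest relative of Syt4. They come from RefSeq (build GRCm38.p6), run 5′ to 3′ from 250 bases before to 50 bases after the annotated start, and lie on the minus strand. Capitals mark an E-box (CACGTG) or a GC box (GGGCGG, or CCGCCC where it lies on the other strand).
Cadps, chr14:12823030-12823329: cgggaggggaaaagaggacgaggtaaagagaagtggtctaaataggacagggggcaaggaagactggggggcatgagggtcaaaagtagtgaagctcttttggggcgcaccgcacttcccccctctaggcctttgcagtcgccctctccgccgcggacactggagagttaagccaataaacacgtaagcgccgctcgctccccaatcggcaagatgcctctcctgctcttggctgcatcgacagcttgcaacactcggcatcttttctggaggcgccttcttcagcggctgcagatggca
Cadps2, chr6:23839372-23839671: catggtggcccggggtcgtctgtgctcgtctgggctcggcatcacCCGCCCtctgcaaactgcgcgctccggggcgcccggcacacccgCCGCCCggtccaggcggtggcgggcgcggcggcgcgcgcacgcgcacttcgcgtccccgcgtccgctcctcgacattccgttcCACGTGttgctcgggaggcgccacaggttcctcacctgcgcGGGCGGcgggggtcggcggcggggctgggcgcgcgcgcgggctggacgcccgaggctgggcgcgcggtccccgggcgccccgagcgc
Syt11, chr3:88772550-88772849: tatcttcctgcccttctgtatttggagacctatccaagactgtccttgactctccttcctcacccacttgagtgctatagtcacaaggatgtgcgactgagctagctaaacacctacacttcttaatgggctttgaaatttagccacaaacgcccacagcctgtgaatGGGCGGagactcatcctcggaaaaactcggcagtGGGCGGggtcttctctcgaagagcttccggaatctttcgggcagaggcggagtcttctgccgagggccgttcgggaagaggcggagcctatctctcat

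Each window was searched on both strands for the E-box CACGTG, which clock factors are known to bind, for the cAMP response element TGACGTCA and its shorter core TGACG, which the full element contains, for the retinoid orphan receptor core AGGTCA, and for the GC box GGGCGG. The E-box stood in 7.15% of all 32851 windows, the full cAMP element in 1.79%, its core in 20.81%, the receptor core in 16.26% and the GC box in 35.66%. Cadps2 held an E-box whose first base lay 78 bases before the start, and GC boxes at 205, 161 and 37 bases before it. Syt11 held GC boxes at 82 and 48 bases before the start. The Cadps window held none of the 5 motifs. RefSeq windows of 5 of the 9 genes were searched, 6 windows in all, and Syt4 was not among the genes looked up. The windows of Syt1 (2 windows) and Syt3 held no E-box. In Syt1, 1 window held a GC box at 11 bases and the other a receptor core at 156 bases before its start. A match is a run of letters, and binding was not measured here.

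The tissue label was checked against marker genes. All 12 listed SCN markers were measured, from percentile 51.1 of all genes (Prok2) to percentile 99.0 (Avp). Mean log2 signals were 10.97 for Avp and 10.05 for Vip, the latter at percentile 97.4. Of the 8 listed markers of neighbouring hypothalamic neurons 7 were measured, from percentile 29.3 (Crh) to percentile 99.6 (Oxt, 11.85). The share of such neighbours in the samples was not tested. Marker genes of anterior pituitary were high on the first 5 arrays (CT 18 to CT 26), where their centred mean reached 2.21 at CT 20. The part of pituitary RNA in the results below was not tested. As marks of clock time, Per2 peaked at 9.53 ± 0.28 h and Arntl at 21.8 ± 0.81 h of circadian time (SE). The arrays at CT 40, CT 62 and CT 64 stood apart: the interquartile range of their log2 signals was 2.48 to 2.67, against 2.72 to 2.90 on the other 21 arrays.

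A 24-h rhythm was called for 3 of the 9 genes, Syt4, Syt5 and Cadps, all 3 with their fitted peak in the first 6 h of the subjective day. Their swings were small: from trough to peak the fitted level changed 1.27-fold for Syt5, 1.26-fold for Syt4 and 1.23-fold for Cadps. The test was limma's moderated F test of a 24-h cosine, adjusted by Benjamini-Hochberg over 13956 tested genes, at a threshold of 0.05. Among all tested genes 7.65% were called, and 4.37% were called with a peak between 0 and 6 h. Of all 1067 called genes, 610 (57.2%) peaked in that window. At an unadjusted p under 0.05 the fit passed 8 of the 9 genes, against 27.5% of all tested genes. All values are RMA signals on the log2 scale, and because each sample was whole tissue, fewer cells of a type and less RNA per cell cannot be told apart.

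**Figure D1:**
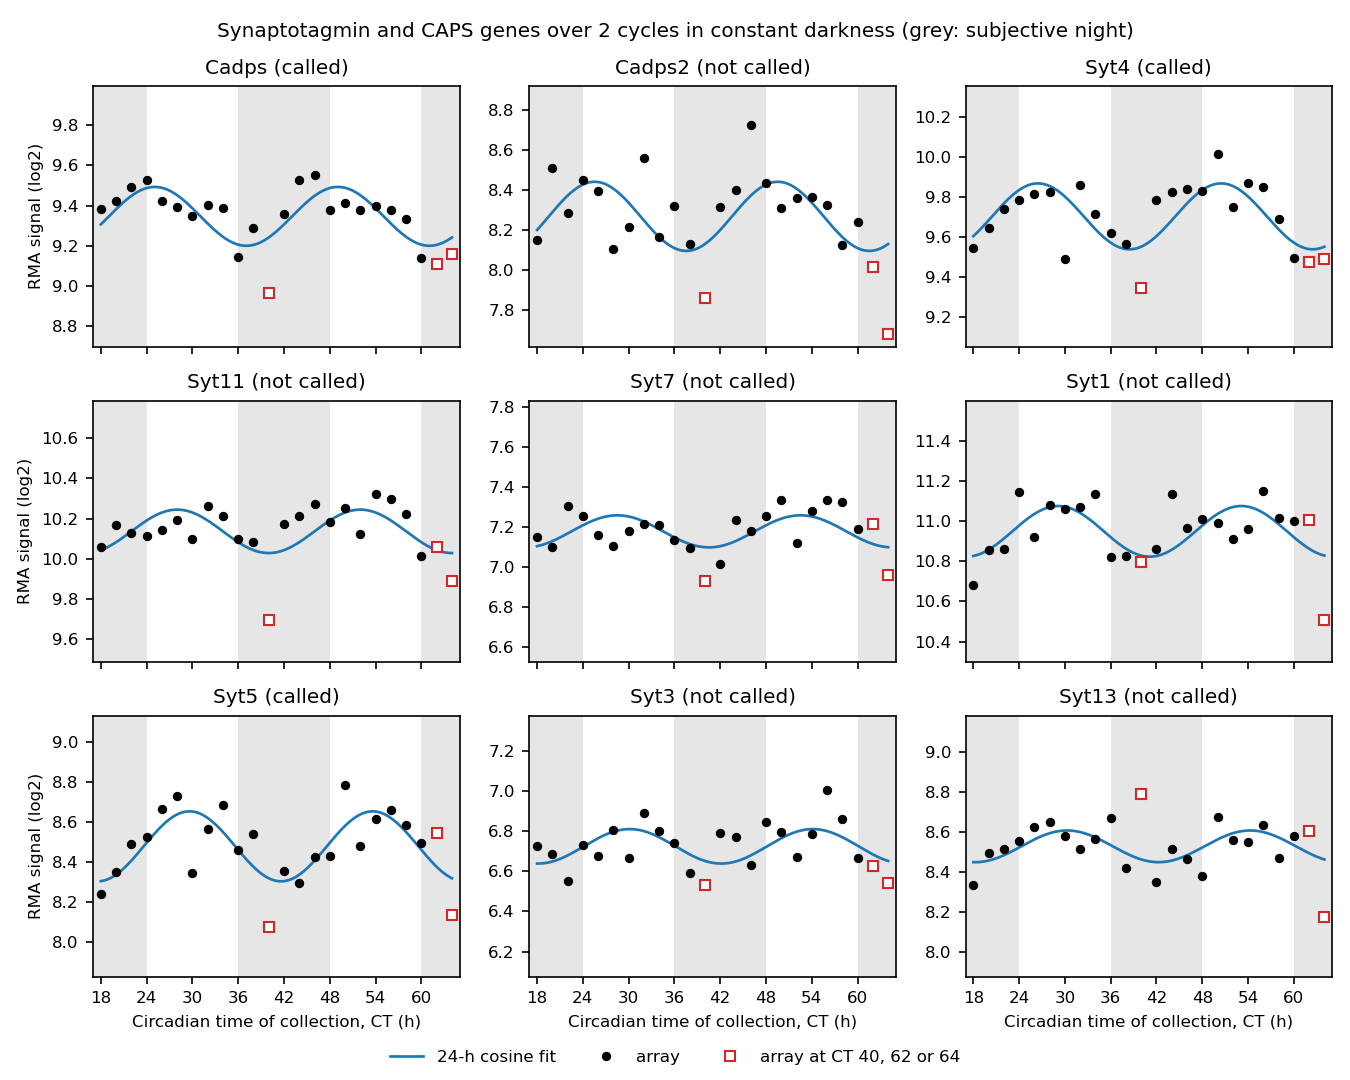
RMA signal (log2, vertical axis, the same height of scale in every panel) of each of the 9 genes on the 24 arrays, by circadian time of collection in h, in order of fitted peak. Points are arrays, red squares the arrays at CT 40, 62 and 64, the line the 24-h cosine fit, and grey the subjective night. The lowest array of every gene was CT 40 or CT 64.

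Syt4 and Syt11 form a pair of synaptotagmins whose first C2 domain lacks an aspartate that others use to bind calcium. Syt4 sits on peptide-carrying vesicles, and its gene is known to respond to neuronal activity. The Syt4 signal (probe set 10457942) ran from 9.49 over a median of 9.82 to 10.01 on the 12 day arrays (0 to 10 h of circadian time), against 9.35, 9.59 and 9.84 on the 12 night arrays (12 to 22 h). Day and night overlapped, with 3 night arrays below every day array and 4 day arrays above every night array. The highest signal was at CT 50 and the lowest at CT 40, and CT 30, in the middle of the first day, was also low at 9.49. The fitted rhythm peaked at 2.46 ± 0.81 h, and its amplitude (mean to peak) was 0.16 ± 0.03 (SE, 24 arrays; adjusted p = 0.0139).

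Syt11 is known to restrain endocytosis. Its signal ran from 10.10 over 10.20 to 10.32 on day arrays, against 9.69, 10.09 and 10.27 on night arrays. Apart from CT 40 and CT 64, all of its arrays lay between 10.01 and 10.32. The fitted peak lay at 3.998 ± 1.21 h and the amplitude was 0.11 ± 0.03 (SE; adjusted p = 0.0917), and the gene was not called. Since a call in 1 gene and not in the other does not show a difference, the difference Syt4 minus Syt11 on each array was fitted on its own. That difference had a 24-h amplitude of 0.08 ± 0.02 (SE) and was highest at 0.25 h of circadian time (permutation test, 100000 permutations of the 24 times, p = 0.00668, adjusted over 3 pairs 0.0200). Without the array at CT 50 the amplitude was 0.07 ± 0.02 (SE) and the adjusted p of the permutation test 0.0529, just above the threshold; the call held without CT 40, CT 62 and CT 64 (0.00936).

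Cadps encodes CAPS1, the main priming factor of dense-core vesicles in the nervous system. Its signal (probe set 10417628) ran from 9.33 over 9.39 to 9.53 on day arrays, against 8.97, 9.32 and 9.55 on night arrays. The day arrays lay close together (SD 0.05), while night arrays spread over a wide range (SD 0.19), with late-night arrays at the top and CT 40, CT 62 and CT 60 at the bottom. No day array exceeded the highest night array, which was CT 46, just before the second dawn. The fitted amplitude was 0.15 ± 0.03 and the peak fell at 1.06 ± 0.82 h (SE; adjusted p = 0.0146).

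Cadps2 encodes CAPS2, the second CAPS protein, linked in mice to release of the neurotrophin BDNF. It had the widest range of the 9 genes, from 7.68 at CT 64 to 8.72 at CT 46. Day arrays ran from 8.11 over 8.34 to 8.56, against 7.68, 8.26 and 8.72 on night arrays, so the night held both extremes. The amplitude, 0.17 ± 0.05, was like that of Syt5, but the scatter around the curve was larger (residual SD 0.19 against 0.10 for Cadps), and with a peak at 1.54 ± 1.14 h the gene was not called (SE; adjusted p = 0.0742). The difference Cadps minus Cadps2 showed no called rhythm, with an amplitude of 0.03 ± 0.05 (SE; permutation test, adjusted p = 0.788).

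Syt1 is the fast calcium sensor of synchronous transmitter release. Its signal ran from 10.91 over 11.04 to 11.15 on day arrays, against 10.51, 10.86 and 11.14 on night arrays, and 8 of the 12 night arrays lay below every day array. The amplitude was 0.13 ± 0.04 with a peak at 5.11 ± 1.13 h (SE; adjusted p = 0.0717), short of the threshold. It was called in 1 of 24 fits that each left out 1 array, the one without CT 44 (limma, adjusted p = 0.0275).

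Syt7 is the slower, high-affinity sensor of asynchronous release, which also serves dense-core and lysosome fusion. It ran from 7.11 over 7.24 to 7.33 by day, against 6.93, 7.14 and 7.30 by night. Its amplitude was 0.08 ± 0.03, with a peak at 4.51 ± 1.44 h (SE; adjusted p = 0.168). The difference Syt7 minus Syt1 had an amplitude of 0.05 ± 0.03, not called (SE; permutation test, adjusted p = 0.557). A 24-h difference between the slow and the fast sensor was thus not detectable with these arrays.

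Syt5 is a calcium-binding synaptotagmin found on dense-core vesicles, whose name was exchanged with that of Syt9 in part of the older literature. The Syt5 signal (probe set 10559580) ran from 8.35 over 8.60 to 8.79 on day arrays, against 8.08, 8.39 and 8.55 on night arrays. The day mean exceeded the night mean by 0.22, the widest such gap of the 9 genes, and 8 of the 12 day arrays lay above every night array. CT 30 was the lowest day array, as it was for Syt4. The fitted amplitude was 0.17 ± 0.04 with a peak at 5.61 ± 0.83 h, later than the fitted peak of Cadps (SE; adjusted p = 0.0153). This difference in peak time was not tested.

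Syt3, a high-affinity sensor known from postsynaptic receptor traffic, and Syt13, an unusual synaptotagmin that does not bind calcium in the usual way, had fitted peaks just after the 6-h mark. Syt3 ran from 6.67 over 6.80 to 7.01 by day, against 6.53, 6.65 and 6.79 by night, and its fitted peak at 6.13 ± 1.41 h had an amplitude of 0.09 ± 0.03 (SE; adjusted p = 0.157). Syt13 ran from 8.38 over 8.56 to 8.68 by day, against 8.17, 8.51 and 8.79 by night. It was highest at CT 40 (8.79) and lowest at CT 64 (8.17), which are the same time of day in the first and the second cycle. This gap of 0.62 was the widest between the cycles of any of the 9 genes, and the amplitude of 0.08 ± 0.04 was not called (SE; adjusted p = 0.272).

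**Figure D2:**
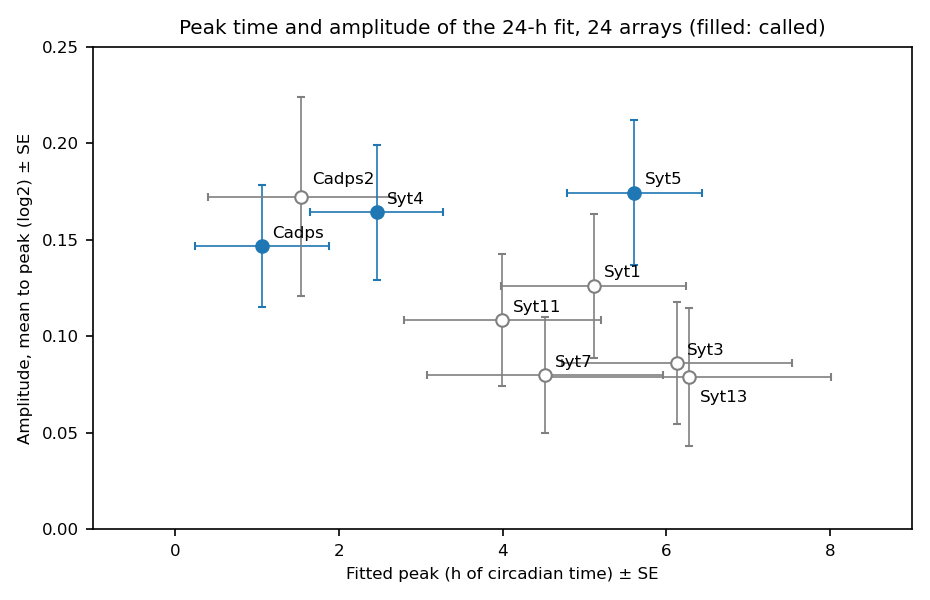
Fitted peak (h of circadian time, horizontal) against amplitude (log2, mean to peak, vertical) of the 9 genes, with SE on both axes; filled points are the 3 called genes. Peaks run from 1.06 h (Cadps) to 6.28 h (Syt13), and the called genes have amplitudes of 0.15 to 0.17.

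With all 24 arrays the 9 fitted peaks fell within a span of the early and middle subjective day, from 1.06 to 6.28 h. Without CT 40, CT 62 and CT 64 the peaks of Cadps2 (23.4 h), Cadps (23.8 h) and Syt3 (7.60 h) lay outside it. The peaks of the other genes stayed within it. The values that follow are from all 24 arrays. Between 0 and 6 h lay 7 of the 9 peaks, and 38.2% of the peaks of all tested genes. The median amplitude was 0.13 for the 9 genes and 0.07 for all tested genes. Neighbours in the order of peaks (Cadps, Cadps2, Syt4, Syt11, Syt7, Syt1, Syt5, Syt3, Syt13) each lay closer together than the sum of their SEs. Over the 24 arrays the 36 pairs among the 9 genes had a median Pearson r of 0.54, from -0.19 (Syt13 with Cadps) to 0.84 (Syt4 with Syt11). These correlations describe values that share arrays and normalisation.

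Of the 3 arrays that stood apart, CT 40 and CT 64, both at 16 h of circadian time, carried most of the low ends of these curves. The lowest array was CT 40 for 6 genes and CT 64 for 3 (Syt1, Syt13 and Cadps2), while CT 62 was the lowest for none and among the lowest 3 arrays for 3 genes. Syt13 was the exception at CT 40, its highest array. The mean of the 9 genes, each centred on its own mean, was -0.308 to -0.073 on these 3 arrays and -0.116 to 0.146 on the other 21. On the same 3 arrays the array background, taken as the mean of 1194 olfactory and vomeronasal receptor genes, was 0.161 to 0.342, against -0.150 to 0.039 on the other 21. The mean of 10 general neuronal markers was -0.377 to -0.063 there, lowest at CT 40, and -0.138 to 0.161 elsewhere. The 12 SCN markers had a mean of -0.616 to -0.190 there, lowest at CT 64, and -0.288 to 0.354 elsewhere. Of these SCN markers 5 were called rhythmic, beside 7.65% of all tested genes, 4 with peaks between 0 and 6 h and 1 between 6 and 12 h. How far their own daily course lowered this mean was not tested. The astrocyte markers (8 of 8 measured) ran from -0.529 at CT 40 to -0.046 at CT 64, against -0.192 to 0.245 elsewhere, and the oligodendrocyte markers from -0.687 at CT 40 to 0.224 at CT 64, against -0.532 to 0.411. The 4 ependyma markers were 0.076 to 0.326 there, highest at CT 64, and -0.285 to 0.188 elsewhere. The part of these markers in the low values was not tested beyond the covariates below.

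**Figure D3:**
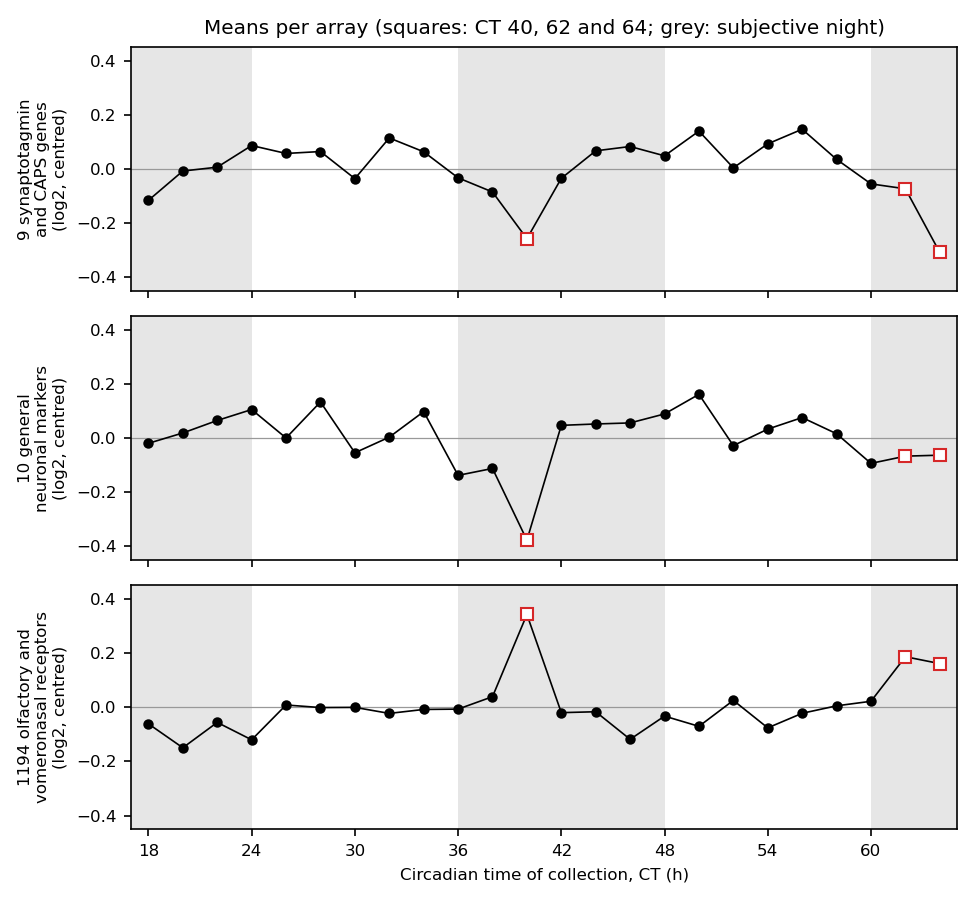
Mean per array of the 9 synaptotagmin and CAPS genes (top), 10 general neuronal markers (middle) and 1194 olfactory and vomeronasal receptor genes (bottom), as centred log2 signal against circadian time of collection in h; red squares are CT 40, 62 and 64. The top mean is lowest at CT 64 (-0.308) and CT 40, and the bottom mean is highest at CT 40 (0.342).

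Over the day the 3 means moved too. The mean of the 9 genes peaked at 3.76 h (amplitude 0.11 ± 0.02), the neuronal markers at 2.06 h (0.10 ± 0.03) and the array background at 13.5 h (0.08 ± 0.03; SE). Of the neuronal markers 4 of 10 were called (Stmn2, Ncam1, Rbfox3 and Map2), beside 7.65% of all tested genes. Their peaks ran from 1.04 to 3.07 h, and all 10 markers were measured above the filter. The oligodendrocyte markers (9 of 10 measured, 0 called) had a mean that peaked at 13.7 h (0.11 ± 0.09), and the pituitary markers one that peaked at 21.4 h (0.44 ± 0.18; SE). Without CT 40, CT 62 and CT 64, 4 of the 9 oligodendrocyte markers were called, beside 4.87% of all genes. With the array background as a covariate 6 of them were called, beside 3.83%, and with the neuronal marker mean 0, beside 1.12%.

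Syt5 was the gene whose call held most often when these measures were taken into account. The neuronal markers and the array background had 24-h courses of their own, with peaks at 2.06 h and 13.5 h. As covariates they can take up more of a rhythm with an early peak, like Cadps and Syt4, than of a later one, like Syt5. The covariate fits therefore cannot separate how firm a rhythm is from its peak time. Without CT 40, CT 62 and CT 64, 2 of the 9 genes were called, beside 4.87% of all genes: Syt5 (amplitude 0.14 ± 0.04, SE; limma, adjusted p = 0.0493) and Cadps (0.11 ± 0.03, SE; 0.0369), while Syt4 (0.12 ± 0.04) had an adjusted p of 0.0963. In that fit the Cadps peak lay at 23.8 h. Without all 4 arrays at 14 and 16 h (CT 38, CT 40, CT 62 and CT 64), a setting chosen after seeing the data, only Syt5 was called (0.15 ± 0.04, SE; limma, adjusted p = 0.0491), beside 3.25% of all genes.

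With the array background as a covariate, again only Syt5 was called (0.16 ± 0.04, SE; limma, adjusted p = 0.0265), beside 3.83% of all genes. The amplitude of Cadps was then 0.08 ± 0.03 (SE; adjusted p = 0.183) and that of Syt4 0.12 ± 0.04 (SE; adjusted p = 0.130). With the neuronal marker mean as a covariate none of the 9 was called by limma, beside 1.12% of all genes. At an unadjusted p under 0.05 that fit passed 4 of the 9 and 12.6% of all genes. Syt5 came closest there, with an amplitude of 0.14 ± 0.03 (SE; adjusted p = 0.0519), while Syt4 and Cadps had amplitudes of 0.08 each. With the oligodendrocyte marker mean as a covariate 6 of the 9 were called (Syt1, Syt4, Syt5, Syt11, Cadps and Cadps2), beside 24.8% of all genes. Whether the neuronal share of the tissue or the array quality plays a part in the rhythms of Syt4 and Cadps was not tested beyond these values.

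**Figure D4:**
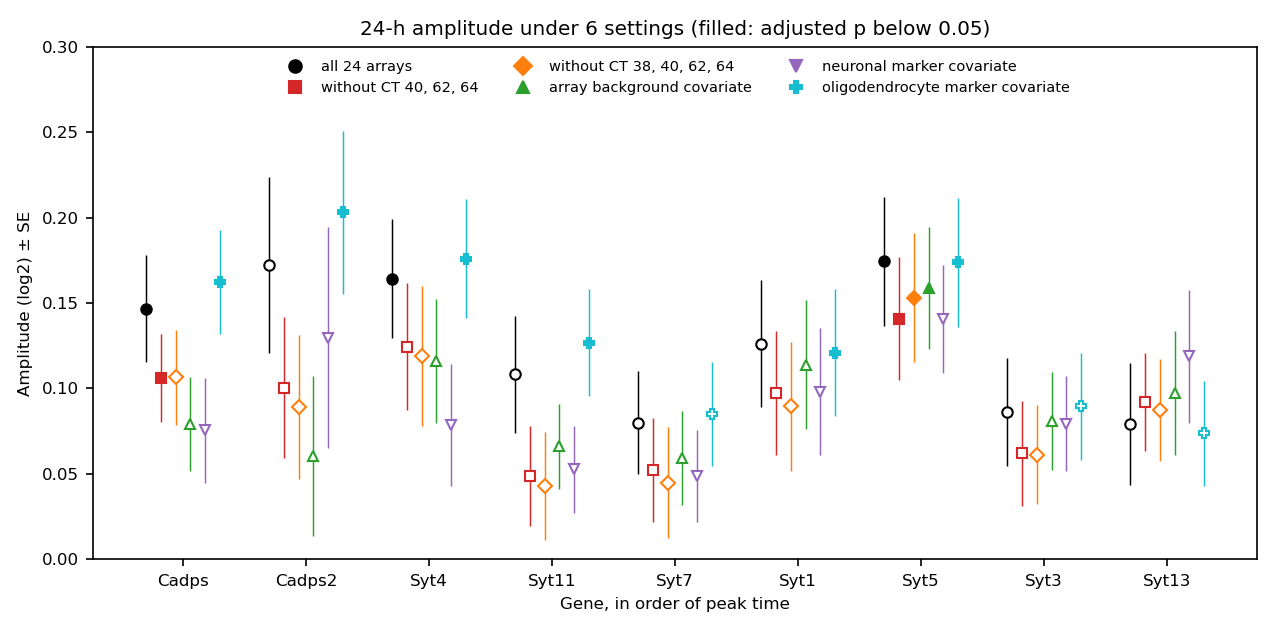
24-h amplitude (log2, mean to peak, with SE) of each of the 9 genes under 6 settings, genes in order of peak time; filled symbols have an adjusted p below 0.05. The amplitude of Syt5 stays between 0.14 and 0.17 in all 6 settings, though its peak time moves, whereas Cadps and Syt4 drop to 0.08 with the neuronal marker covariate.

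A change in level between the cycles was called for none of the 9 genes and for none of all tested genes (0% by limma), while at an unadjusted p under 0.05 the test passed 0 of the 9 and 1216 of all genes. Syt4 ran from 9.48 over 9.80 to 10.01 in the second cycle, against 9.35, 9.68 and 9.86 in the first cycle. Its second-minus-first difference of 0.08 was the largest in size, with a 95% interval from -0.02 to 0.18 (limma, adjusted p = 0.643). For Syt13 the difference was -0.06, with an interval from -0.17 to 0.04.

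The rhythm itself did not pass a test of change between the cycles for any of the 9 genes, nor for any tested gene (0% called; 0 of the 9 and 338 of all genes at an unadjusted p under 0.05 in limma). Syt5 had an amplitude of 0.18 ± 0.06 in the second cycle and 0.17 ± 0.06 in the first, with peaks at 6.03 h and 5.18 h (SE). Cadps had 0.15 ± 0.05 in each cycle, and peaks at 0.64 h in the second and 1.48 h in the first (SE). Cadps2 had 0.23 ± 0.07 in the second cycle and 0.11 ± 0.07 in the first (SE), with an adjusted p of 0.9999 in limma for the difference. With 12 arrays a cycle, differences of this size were not detectable.

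A second harmonic with a period of 12 h was called for none of the 9 genes by limma and for 5 of all tested genes (0.0358%), and 5 of the 9 had an unadjusted p under 0.05, beside 21.9% of all tested genes. The largest 12-h amplitude was that of Cadps2, 0.17, close to its 24-h amplitude (adjusted p = 0.115). The others ranged from 0.04 for Syt13 to 0.10 for Cadps.

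The genes whose signal followed each called gene most closely over the 24 arrays were listed by Pearson r. Closest to Syt4 were Camk2b (r = 0.909), a subunit of calcium/calmodulin-dependent kinase, Gad2 (0.908), an enzyme of GABA synthesis, and Syn2 (0.907), a synapsin. Closest to Cadps were Zc2hc1a (0.938), Parp6 (0.925) and Idh3a (0.921), a subunit of mitochondrial isocitrate dehydrogenase. Syt5 had lower values, with Pnma3 (0.846), Pabpc1l2b (0.836) and Ptpn5 (0.830), a tyrosine phosphatase of neurons. Of these 9 neighbours all but Pabpc1l2b (adjusted p = 0.0715) were called rhythmic by limma. They were picked for likeness to a called gene on the same arrays, so their calls are not a separate result.

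Around these genes, 77 tested genes of the release machinery were examined, of which 12 were called (15.6%, beside 7.65% of all tested genes). Among the 12, 9 had a peak between 0 and 6 h, as did 57.2% of all called genes. Their median amplitude was 0.09, against 0.07 for all tested genes. Among 21 other synaptotagmins and C2-domain relatives, 1 was called (4.76%, beside 7.65% of all tested genes). This gene, the atypical synaptotagmin Syt17, peaked at 22.03 ± 0.81 h (amplitude 0.30 ± 0.06, SE; limma, adjusted p = 0.0134). Syt10, which is enriched in SCN neurons and was picked after its values were seen, had an amplitude of 0.05 ± 0.06 and was not called (SE; adjusted p = 0.815).

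Of 17 SNARE genes and genes for SNARE disassembly, 4 were called (23.5%, beside 7.65% of all tested genes), all peaking in the first 6 h. They were Snap25, a plasma membrane SNARE (amplitude 0.18 ± 0.04, peak 1.77 h), Nsf, the ATPase that takes SNARE complexes apart (0.20 ± 0.04, 3.06 h), Napa, its adaptor (0.14 ± 0.04, 4.87 h), and Snap47 (0.11 ± 0.03, 2.73 h; SE). Of 17 vesicle membrane genes 5 were called (29.4%, beside the same 7.65%), also in the first 6 h. The synapsins, which tether vesicles in reserve, were 3 of these, Syn1 (0.24 ± 0.05), Syn2 (0.22 ± 0.04) and Syn3 (0.16 ± 0.03), beside Scamp1 (0.19 ± 0.04) and Sv2a (0.24 ± 0.06; SE), the last named after its values were seen.

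Of 22 priming, docking and clamping genes 2 were called (9.09%, near the 7.65% of all tested genes), both with peaks in the subjective night. Of all 1067 called genes, 217 peaked between 12 and 18 h. Unc13a encodes Munc13-1, a priming factor of clear and dense-core vesicles whose MUN domain is related to part of CAPS, and peaked at 12.6 ± 0.85 h (amplitude 0.30 ± 0.07, SE; limma, adjusted p = 0.0184). The array held 3 probe sets for Unc13a, and these values are only from the one of highest mean. Stxbp6, which encodes the SNARE-binding protein amisyn, peaked at 15.96 ± 0.70 h (0.21 ± 0.04, SE; limma, adjusted p = 0.00521).

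Of 12 tested genes for dense-core granule cargo and membrane proteins 4 were called: Vgf, a peptide precursor, at 5.66 ± 0.59 h (amplitude 0.29 ± 0.05), Ptprn2 at 3.89 ± 0.74 h (0.18 ± 0.03), Ptprn at 5.13 ± 0.97 h (0.14 ± 0.03), and Chga, which encodes chromogranin A, at 6.77 ± 0.98 h (0.23 ± 0.06; SE). The called share of this list was 33.3%, beside 7.65% of all tested genes. Vgf and Syt5 had fitted peaks that lay close together. Without CT 40, CT 62 and CT 64, 6 of the 77 release genes and 1 of the 12 granule genes were called, beside 4.87% of all genes. With the neuronal marker covariate 1 of each was called, beside 1.12% of all genes.

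**Figure D5:**
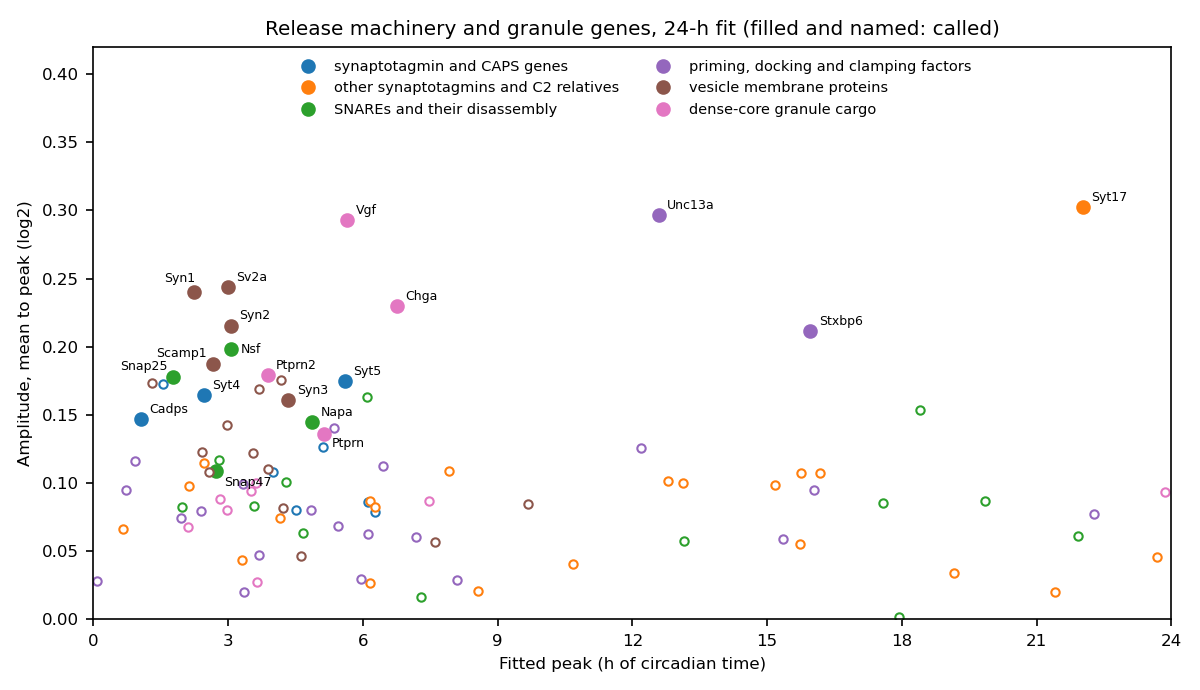
Fitted peak (h of circadian time) against amplitude (log2, mean to peak) for the 9 synaptotagmin and CAPS genes and the genes of 5 lists, by colour; filled and named points are called. Called SNARE and vesicle membrane genes lie between 1.77 and 4.87 h, while Unc13a (12.6 h), Stxbp6 (15.96 h) and Syt17 (22.03 h) lie apart.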

How the data were processed

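RNA of the SCN, amplified with NuGen kits and biotin-labelled per the labels, was hybridised to Affymetrix gene arrays. The deposited values are log2 signals that the authors normalised by RMA 1.3.1.187 in Affymetrix Expression Console, per the submitters' processing notes, and they were used as deposited. The genome build of the array annotation is not given in the sources used here. Of 35556 probe sets, 21789 had 1 gene symbol; each gene took its probe set of highest mean, and the 13956 genes at or above the 30th percentile (log2 5.52) were tested, all 9 genes among them. Fits used limma 3.58.1 in R 4.3.3 (24-h terms; cycle term; their interaction; 12-h terms), checked on simulated data. No pool was repeated at a time, so p-values measure the scatter of these pools around the curve, technical scatter included. The number of arrays limits the precision. The 9 genes, the lists and the tests were chosen with earlier results of these data known. Genes named are the 9, the 3 nearest by Pearson r to each called one, up to 4 called per list by p, Per2 and Arntl. Syt10, Sv2a and the markers Avp, Vip, Crh and Oxt were named outside this rule, after their values were seen. Alternatives covered filters, normalisation, weights, covariates, ranks, left-out arrays and a threshold of 0.01.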

Additional observations from a re-analysis of the deposited data

How the results depend on the processing

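The count of 3 called genes was 1 with the array background covariate, 0 with the neuronal marker covariate, 6 with the oligodendrocyte marker covariate, 1 without the 4 arrays at 14 and 16 h (added after seeing the data) and 0 at a threshold of 0.01; it was 2 without CT 40, CT 62 and CT 64, and 3 to 4 when single arrays were left out. It was 3 with ranks, a linear time term, limma's trended prior or array weights, either other filter, median or quantile normalisation, and every probe set tested. The 12 called release genes numbered 6 with the array background covariate and 6 without CT 40, CT 62 and CT 64, 1 with the neuronal and 28 with the oligodendrocyte marker covariate, 4 without the 4 arrays, 3 at a threshold of 0.01, and 9 to 18 when single arrays were left out. Settings that leave out arrays fit fewer samples; the cause was otherwise not tested. Syt4, Syt5 and Cadps were called in 24 of 24 such fits (highest adjusted p in limma 0.0361, 0.0349 and 0.0339). The adjusted p of Syt4 minus Syt11 (permutation test) ran from 0.00435 to 0.0529 over left-out arrays. The calls on change between cycles, change in rhythm and 12-h rhythm were 0 of 9 under every alternative run. With the time of day as a block, which pairs the arrays of both cycles at the same time, the adjusted p of the change between cycles in limma ran from 0.544 (Syt4) to 0.984 (Cadps). Among all 1067 called genes the lowest amplitude was 0.09, so amplitudes near 0.1 lay at the low end of what was called.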
